A study of Mus musculus with 8 samples.

Results

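The clustered protocadherins are 3 neighbouring gene arrays, alpha, beta and gamma, on mouse chromosome 18. The RNA-seq table held 59 genes whose symbol begins with Pcdha, Pcdhb or Pcdhg and goes on with a letter or digit, among 24062 listed genes: 15 alpha, 22 beta and 22 gamma. The table of reduced representation bisulfite sequencing, called RRBS, a method that sequences MspI fragments rich in CpG after bisulfite conversion, held 1853 cytosines in the region of these genes among 2361680 listed: 515 in the alpha part, 242 in the beta part and 1096 in the gamma part. The alpha part runs from the start of the array to the base before Pcdhb1, the beta part from the start of Pcdhb1 to the end of Pcdhb22, and the gamma part from there to just past the end of the gamma genes, in build mm10. Members were taken by name and position, a choice made with earlier results of these data known.

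These genes encode cell surface proteins of the cadherin family that bind the same isoform on a neighbouring cell, best known from neurons, where the mix of isoforms lets a cell tell its own branches from those of others. Each alpha and gamma gene contributes its own large variable first exon, which is spliced to constant exons shared by all genes of its array, whereas each beta gene is a single exon. Each variable exon has its own promoter, and as background, methylation of CpGs at promoter and first exon is known to go with silence of that isoform, binding of CTCF and cohesin with its use. The C-type genes at the far end of the alpha and gamma arrays are regulated differently from the rest.

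All samples were stable clones of NIH3T3, an established line of mouse embryonic fibroblasts, picked as single colonies with G418 at 800 µg/mL as selection drug and grown in 10% serum. Control clones 2 and 3 were grown from cells given the vector, and clones 10 and 12 carried 14-3-3ε in the plasmid p3xFLAG-CMV-10, which drives a FLAG-tagged protein from a viral promoter. Each of the 4 clones gave 1 RRBS and 1 RNA-seq library, so 8 samples formed 4 groups of 2. The study compared methylation and expression between both kinds of clone.

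Neither table gives values for single clones or libraries, only the authors' comparison of the groups, so values in single clones, their spread and their depth cannot be shown. The direction of the differences is not stated in the files. Positive values were read as higher in 14-3-3ε clones, and Ywhae, which encodes mouse 14-3-3ε, does not check that reading (log2 fold change -0.03, standard error 0.18, adjusted p 0.942, per the authors' deposited table). With 2 clones per group, a difference that goes with 14-3-3ε and one between clones that arose by chance at picking cannot be told apart. All 8 fibroblast markers had a mean normalized count of at least 4843, per the authors' deposited table. Of these 8, 4 were called higher, where 6.15% of all genes with an adjusted p were higher and 4.74% lower. Of 8 neuron and glia markers, Syn1 and Map2 stood at 410 and 781 and the other 6 at or below 15.3, with Olig2 listed at 0, per the authors' deposited table. Map2 fell by 1.36 in log2 units (adjusted p 0.00564), while Syn1 was not called, per the authors' deposited table. The 4 epithelial markers summed to a mean normalized count of 52.6 and the 2 blood markers to 120, per the authors' deposited table.

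Beta genes were the group with most calls, and their differences all pointed one way. Of 22 beta genes, 1 was listed at 0 and 2 had too few reads for an adjusted p, and of the 19 others 8 rose in 14-3-3ε clones at the authors' adjusted p under 0.05 and none fell. Over all genes with an adjusted p, 6.15% were called higher and 4.74% lower. The fold change was positive in all 21 beta genes with reads, from 0.06 for Pcdhb10 to 1.01 for Pcdhb22 in log2 units, per the authors' deposited table. The median over the 19 was 0.73, against -0.0027 over all 11482 genes with an adjusted p, per the authors' deposited table. Beta genes lie side by side and resemble each other in sequence, so they are not independent of each other, and the counting of reads that match several of them is not stated in the files or labels.

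**Figure D1:**
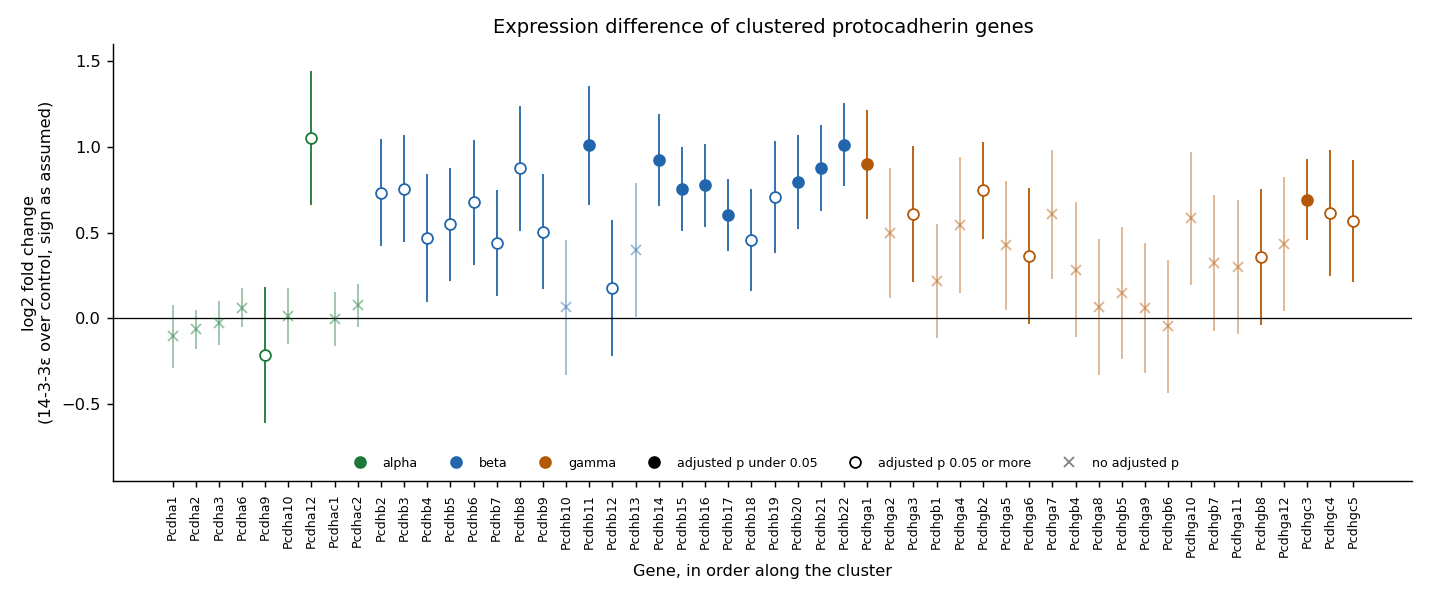
Log2 fold change (y axis) of the 52 clustered protocadherin genes with reads, in their order along the cluster (x axis); points are the authors' estimates and bars are 1 standard error, filled where the adjusted p is under 0.05. Nearly all beta and gamma points lie above 0, and the 10 filled points are 8 beta genes, Pcdhga1 and Pcdhgc3.

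The gene with the smallest adjusted p was Pcdhb22, the last of the beta array (chromosome 18, start at 37518353). It had a mean normalized count of 410, a log2 fold change of 1.01 (standard error 0.24), a fold of 2.02, and an adjusted p of 0.000913, per the authors' deposited table. Its neighbour Pcdhb21 rose by 0.88 (standard error 0.25, adjusted p 0.00872) in log2 units, per the authors' deposited table. These 2 were also the only members with an adjusted p under 0.01.

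The other beta genes that rose were Pcdhb11, Pcdhb14, Pcdhb15, Pcdhb16, Pcdhb17 and Pcdhb20. Pcdhb14 rose by 0.92 (standard error 0.27, adjusted p 0.0104) and Pcdhb16, which had the most beta reads with a mean normalized count of 820, by 0.78 (0.24, 0.0184) in log2 units, per the authors' deposited table. Pcdhb15 rose by 0.75 (standard error 0.25, adjusted p 0.0264) and Pcdhb20 by 0.79 (0.27, 0.0391) in log2 units, per the authors' deposited table. Pcdhb11, with a mean normalized count of only 84.8, rose by 1.01 (standard error 0.35, adjusted p 0.0373), and Pcdhb17 by 0.60 (0.21, 0.0438) in log2 units, per the authors' deposited table. All 8 thus rose between 1.52-fold and 2.02-fold. When p-values were adjusted over all 17478 genes that have one, without the authors' filter on low means, 5 of the 8 passed and Pcdhb11, Pcdhb17 and Pcdhb20 did not (adjusted p 0.0562, 0.0659 and 0.0591).

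In 11 beta genes with an adjusted p the test was not passed, and their values ran from 0.17 to 0.88 in log2 units, against 0.60 to 1.01 in the 8 that rose, per the authors' deposited table. In log2 units Pcdhb3 stood at 0.76 (adjusted p 0.0986), Pcdhb8 at 0.88 (0.105), Pcdhb2 at 0.73 (0.115) and Pcdhb19 at 0.71 (0.151), per the authors' deposited table. Pcdhb7, with a mean normalized count of 626 among the highest of the array, had a log2 fold change of 0.44 and a standard error of 0.31 (adjusted p 0.403), per the authors' deposited table. The normal 95% interval around that value reached from -0.17 to 1.04, so it holds both no difference and the values of the genes that were called. Pcdhb6, Pcdhb5, Pcdhb9, Pcdhb4 and Pcdhb18 had log2 fold changes of 0.68, 0.55, 0.51, 0.47 and 0.46, per the authors' deposited table. Pcdhb12 stood lowest of the 19 with 0.17 (standard error 0.40), and Pcdhb10 and Pcdhb13, with mean normalized counts of 23.7 and 18.5, per the authors' deposited table, had no adjusted p.

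Calls were placed unevenly along the array. Of the last 11 beta genes, Pcdhb12 to Pcdhb22, 7 of the 10 with an adjusted p rose, and of the first 11, Pcdhb1 to Pcdhb11, 1 of 9 did. The median log2 fold change was close, 0.77 in the later genes and 0.68 in the earlier ones, and the median standard error was 0.26 and 0.33, from values of the authors' deposited table. The later genes also had more reads, with a median mean normalized count of 414 against 182. This split was made after the values were seen, and the difference between its sides was not tested.

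**Figure D2:**
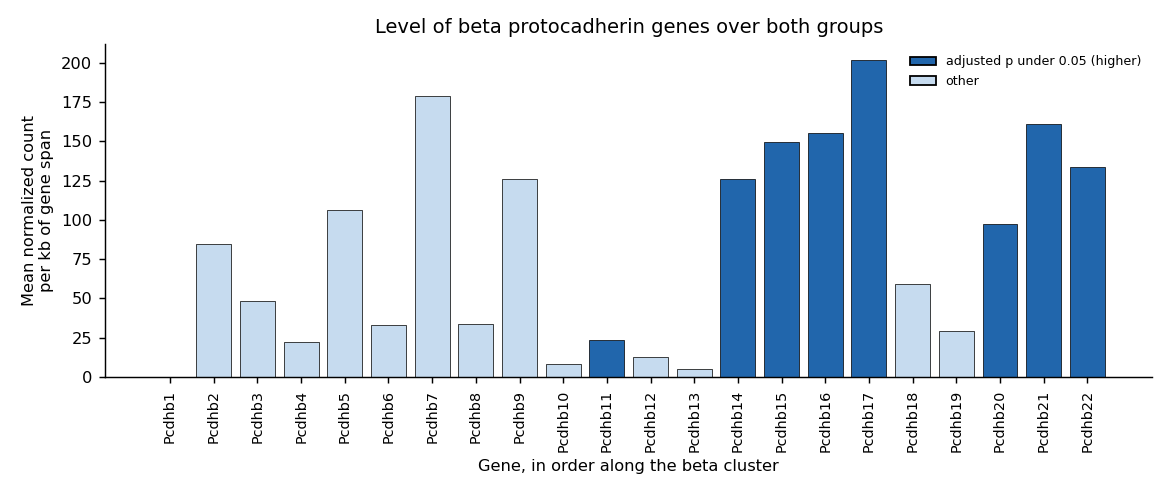
Mean normalized count per kb of annotated gene span (y axis, 1 authors' mean over both groups per gene, so no error bar) for the 22 beta genes in order along the array (x axis); dark bars rose at an adjusted p under 0.05. The tallest bar is Pcdhb17 at 202 and the shortest above 0 is Pcdhb13 at 5.01.

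Since a beta gene is a single exon, its level can be set against its length. Per kb of gene span, the mean normalized count was highest in Pcdhb17 (202), Pcdhb7 (179), Pcdhb21 (161), Pcdhb16 (156) and Pcdhb15 (149), as computed from the authors' deposited table. Levels then went down through Pcdhb22 (134), Pcdhb14 (126), Pcdhb9 (126), Pcdhb5 (107) and Pcdhb20 (97.4) per kb, from the same authors' deposited table. The lowest above 0 were Pcdhb12 (12.7), Pcdhb10 (8.33) and Pcdhb13 (5.01) per kb, a run of weakly expressed genes in the middle of the array with Pcdhb11 (23.5) among them, per the authors' deposited table. Pcdhb1, the first of the array, was listed at 0. These are means over both kinds of clone, so whether neighbours in this order differ by more than the spread between clones cannot be shown.

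In the gamma array, 8 of 22 genes had an adjusted p. Of these 8, 2 rose and none fell, where 6.15% and 4.74% of all genes did. Pcdhgc3, a C-type gene (chromosome 18, 37806410 to 37841873), held 82.5% of the summed mean normalized count of the gamma genes, with 7533, per the authors' deposited table. It rose by 0.69 with a standard error of 0.24, a fold of 1.61, and an adjusted p of 0.0361, per the authors' deposited table. Pcdhga1, the first gamma gene (37661775 to 37841870, a span that takes in the shared constant exons), had a mean normalized count of 168 and rose by 0.90 (standard error 0.32, adjusted p 0.0452), per the authors' deposited table. Both lost their call when p-values were adjusted over all genes that have one (0.0544 for Pcdhgc3 and 0.0679 for Pcdhga1).

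Pcdhgb2 stood just outside the threshold. Its mean normalized count of 936 was the second highest of the gamma genes, and its log2 fold change was 0.75 (standard error 0.28, adjusted p 0.0657), per the authors' deposited table. The other C-type genes, Pcdhgc4 and Pcdhgc5, had log2 fold changes of 0.61 and 0.57 with mean normalized counts of 69.0 and 71.9 and adjusted p of 0.307 and 0.332, per the authors' deposited table. Pcdhga3, Pcdhga6 and Pcdhgb8, which RefSeq lists as a transcribed pseudogene, had log2 fold changes of 0.61, 0.36 and 0.36, none past the test (adjusted p 0.354, 0.639 and 0.643), per the authors' deposited table. The mean normalized count of Pcdhgb8, 34.0, was just above the lowest that carried an adjusted p, per the authors' deposited table, 33.1, and that of Pcdhgb7, 29.5, just below.

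The other 14 gamma genes, all of the A and B type, had mean normalized counts from 6.13 for Pcdhgb1 to 29.5 for Pcdhgb7 and no adjusted p, per the authors' deposited table. Among them Pcdhga7 and Pcdhga10 had the largest log2 fold changes, 0.61 and 0.58, with unadjusted p of 0.107 and 0.134, per the authors' deposited table. Over all 22 gamma genes, 21 fold changes were positive and that of Pcdhgb6 was -0.05, per the authors' deposited table. The median was 0.43 over all 22 and 0.61 over the 8 with an adjusted p. Reads in the constant exons belong to every gene of the array, and the way they were counted is not stated in the files or labels.

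The alpha array had few reads. Of 15 alpha genes 6 were listed at 0 (Pcdha4, Pcdha5, Pcdha7, Pcdha8, Pcdha11 and Pcdha4-g, a model that joins an alpha first exon to the gamma constant exons), and 7 others had a mean normalized count under 2. The remaining 2, Pcdha12 and Pcdha9, made up 63.3% and 32.3% of the summed alpha counts, with mean normalized counts of 90.7 and 46.3, per the authors' deposited table. Pcdha12, the last gene before the C-type ones (37020230 to 37187657), had the largest log2 fold change of all members, 1.05, with a standard error of 0.39, and missed the test with an adjusted p of 0.0604, per the authors' deposited table. Pcdha9 stood at -0.21 in log2 units (standard error 0.40, adjusted p 0.805), per the authors' deposited table. The C-type alpha genes Pcdhac1 and Pcdhac2 had mean normalized counts of 1.45 and 0.696, per the authors' deposited table. No alpha gene was called in either direction. Spans of alpha genes overlap, among them Pcdha4-g and Pcdha4, which start at 36952648 and 36952689. How reads in shared sequence were counted is not stated for alpha either, so a listing at 0 need not mean no transcript.

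**Figure D3:**
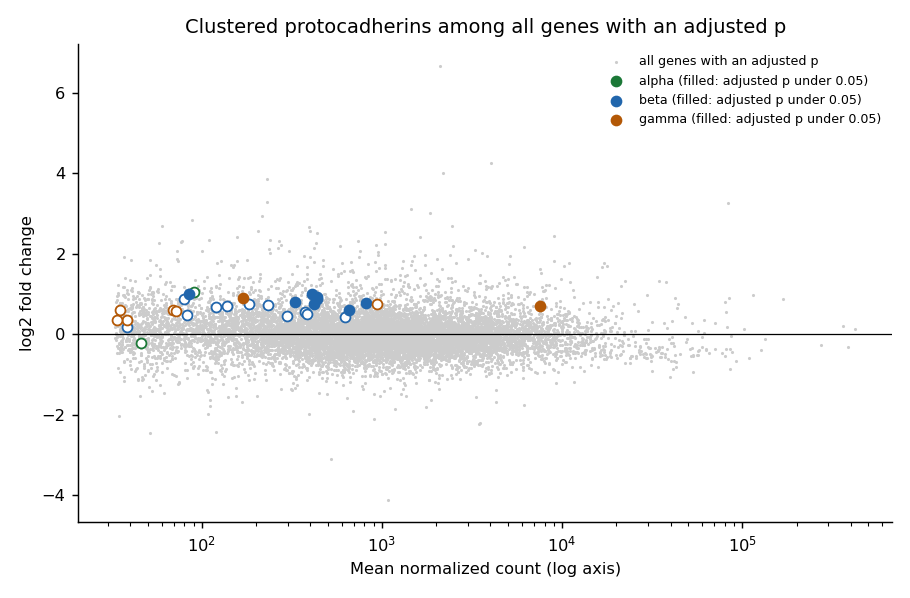
Log2 fold change (y axis) against mean normalized count (x axis, log scale) for the 11482 genes with an adjusted p (grey) and the 29 clustered protocadherins among them (coloured by array, filled where the adjusted p is under 0.05). Of the 29, 28 lie above 0 and Pcdha9 below.

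Members were also set beside genes of like level. Among genes with a mean normalized count between 100 and 1000, the median standard error was 0.30 over 17 members and 0.26 over 4946 genes, per the authors' deposited table. Of these 17 members 15 were beta genes, with 7 called higher, and the others were Pcdhga1 and Pcdhgb2. Of the 17, 8 were called higher (47.1%) and all had a positive fold change. Of the 4946 genes 6.21% were called higher and 52.0% were positive. In this band the median log2 fold change was 0.75 for members and 0.02 for all genes, per the authors' deposited table.

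Genes next to the cluster gave a single call. Within 500 kb on either side and between the arrays, 29 other protein-coding genes were listed and 22 had an adjusted p, of which 1 fell and none rose, where over all genes 4.74% fell and 6.15% rose. That gene, Wdr55, a WD-repeat gene on the alpha side, fell by 0.72 (standard error 0.22, adjusted p 0.0160) in log2 units, per the authors' deposited table. The median over the 22 was 0.06, and 14 of them were positive. Taf7, a gene of the general transcription factor TFIID that sits between beta and gamma arrays, had a log2 fold change of 0.41 (standard error 0.29, adjusted p 0.414), and Slc25a2 beside it had a mean normalized count of 3.89, per the authors' deposited table. Among the highest of these neighbours were Ankhd1 and Rnf14, with log2 fold changes of -0.17 and 0.21 (adjusted p 0.673 and 0.519), per the authors' deposited table. The difference between members and neighbours was not tested.

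Protocadherins outside the cluster and atypical cadherins gave 1 rise and no fall among 8 genes with an adjusted p, of 21 in the list, with 6.15% and 4.74% over all genes. Pcdh18 rose by 0.63 (standard error 0.19, adjusted p 0.0114) in log2 units, per the authors' deposited table. Pcdh19, which had the most reads with a mean normalized count of 7190, and the giant cadherin gene Fat1, with 6811, had log2 fold changes of 0.23 and -0.34 (adjusted p 0.783 and 0.574), per the authors' deposited table. The median over the 8 was 0.28.

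A list of 30 genes was drawn up for promoter choice and silencing of these arrays, and it includes general cohesin, methylation and repressor genes. The role of each at these arrays was not tested. Of the 30, 29 had an adjusted p, 1 rose and none fell, where 6.15% and 4.74% of all genes did. The one that rose was Tet1, an enzyme that oxidises methylated cytosine, by 0.74 (standard error 0.23, adjusted p 0.0200) in log2 units, per the authors' deposited table. Ctcf, the gene of the factor that binds the variable promoters and loops them to enhancers, had a log2 fold change of 0.02 (standard error 0.20, adjusted p 0.970), and Rad21 of cohesin one of -0.23 (0.20, 0.538), per the authors' deposited table. Smchd1, which helps keep these arrays silent, had a log2 fold change of -0.48 (standard error 0.21, adjusted p 0.133) and Dnmt3b, a methyltransferase that methylates their promoters in development, one of -0.48 (0.28, 0.292), per the authors' deposited table. Uhrf1, which helps copy methylation to newly made DNA, had the lowest value of the list, -0.67 in log2 units (standard error 0.33, adjusted p 0.194), per the authors' deposited table. Ctcf, Rad21, Smchd1, Dnmt3b and Uhrf1 were named after their values were seen. Hnrnpu and Trim28 had the most reads of this list, with log2 fold changes of -0.27 and -0.20 (adjusted p 0.383 and 0.519), per the authors' deposited table. The median over the 29 was -0.15 and 9 were positive.

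Among 22 genes for proteins that bind protocadherins or act downstream of them, 20 had an adjusted p, 2 rose and none fell, beside 6.15% higher and 4.74% lower over all genes. Marcks, an actin-linked membrane protein, rose by 1.78 (standard error 0.22, adjusted p 5.94e-13), and Ptk2b, which encodes the kinase Pyk2 that the shared alpha and gamma tails hold in check, rose by 1.26 (0.31, 0.00123) in log2 units, per the authors' deposited table. Its relative Ptk2, the gene of focal adhesion kinase, had a log2 fold change of 0.0045 (standard error 0.18, adjusted p 0.991), per the authors' deposited table. Rac1, next to Marcks the gene with most reads here, had one of 0.30 (0.19, 0.327), per the authors' deposited table.

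In RRBS, cytosines of the cluster were called lower in 14-3-3ε clones more often than higher. Of 1853 cytosines 71 were lower and 28 higher at the authors' q under 0.05, or 3.83% and 1.51%, where 2.83% and 1.92% of all listed cytosines were called. The mean difference was -0.944 percentage points over the cluster and -0.491 over all cytosines, per the authors' deposited table. In the alpha part 27 of 515 were lower and 10 higher (5.24% and 1.94%). In the beta part 11 of 242 were lower and 1 higher (4.55% and 0.413%), and in the gamma part 33 of 1096 were lower and 17 higher (3.01% and 1.55%). The gamma shares lie near those of the whole table. Only differences are listed, with neither levels nor coverage per clone, and neighbouring cytosines share reads, so the counts are descriptions.

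**Figure D4:**
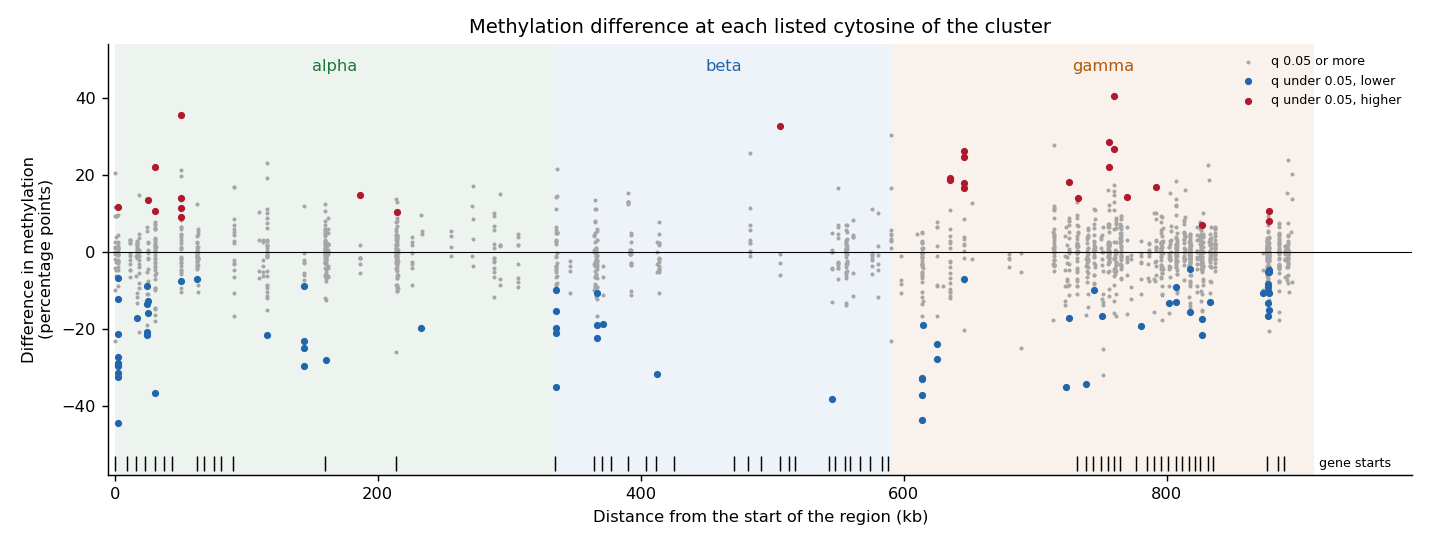
Difference in methylation in percentage points (y axis) at each of the 1853 listed cytosines by distance from the start of the region in kb (x axis), with arrays shaded and gene starts as ticks; blue and red points have q under 0.05. Called points sit in tight groups at a few places, among them the first alpha gene, the spacer between beta and gamma, and Pcdhgc3.

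The flanks of the cluster differed from each other as well. In the megabase before it 3.34% of 2213 cytosines were lower and 1.81% higher, with a mean of -0.454 points, and in the megabase after it 2.51% of 2154 were lower and 2.65% higher, with a mean of -0.0251 points, per the authors' deposited table. Over the rest of chromosome 18 the mean was -0.548 points and 2.88% were lower, per the authors' deposited table. The means of the alpha, beta and gamma parts were -1.22, -0.988 and -0.806 points, per the authors' deposited table. With both strands of a CpG averaged, and CpGs listed on a single strand kept, the beta mean was -0.522 points. Over the 110 beta CpGs with both strands listed it was -1.55 points. The medians over single cytosines were -0.73 in alpha, -0.831 in beta and -0.221 in gamma, and 0 in both flanks and over the rest of the chromosome, per the authors' deposited table. The differences between these regions were not tested.

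Calls were concentrated in some segments. Over the variable genes Pcdha1 to Pcdha12, 25 of 326 cytosines were lower (7.67%) and 8 higher (2.45%), with a mean of -1.66 points, per the authors' deposited table. Of these 25, 10 lay within 106 bp of Pcdha1 and 6 within 158 bp of Pcdha4, so the share rests largely on those short stretches. From Pcdhac1 to the end of the alpha genes, 2 of 155 were lower and 2 higher. The spacer between alpha and beta had 34 listed cytosines and none called, which allows a share of up to 8.82%. In the spacer between beta and gamma, 10 of 180 were lower and 7 higher (5.56% and 3.89%), with a mean of -2.05 points, per the authors' deposited table. Over the gamma A and B genes 13 of 677 were lower and 8 higher (1.92% and 1.18%), and from Pcdhgc3 to the end of the region 10 of 239 were lower and 2 higher (4.18% and 0.837%).

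**Figure D5:**
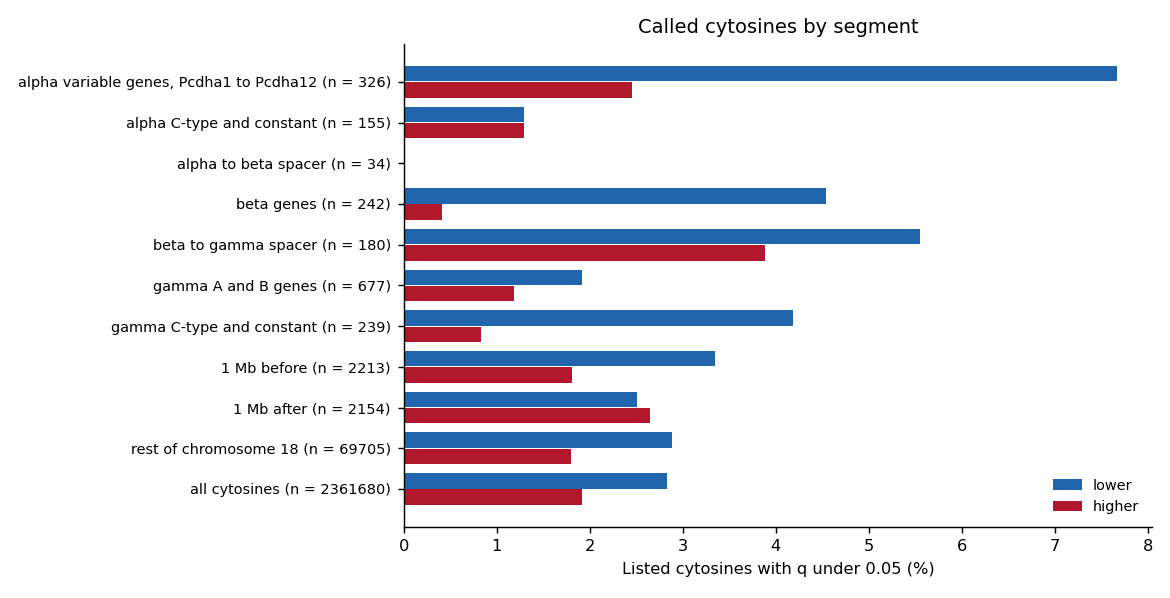
Percent of listed cytosines with q under 0.05 (x axis), lower in blue and higher in red, by segment of the cluster, its flanks and the whole table (y axis, n is the number of listed cytosines). The variable alpha genes have the longest lower bar, 7.67%, and the gamma A and B genes one of 1.92%, against 2.83% over all cytosines. Of the 25 lower calls in the variable alpha genes, 10 lie in a short stretch of Pcdha1 and 6 in one of Pcdha4.

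Cytosines were also placed relative to gene starts. Most listed cytosines, 1402 of 1853, lay within the first 2500 bp from a member's start, about the length of a variable first exon, and 52 of them were lower and 15 higher (3.71% and 1.07%). In the 1000 bp before a start only 69 were listed and none called, which allows a share of up to 4.35%. Of the other 382, 19 were lower and 13 higher (4.97% and 3.40%). All 12 called beta cytosines lay within the first 2500 bp, where 222 of the 242 listed ones lay. In alpha 25 of 37 called and 347 of 515 listed cytosines lay there, and in gamma 30 of 50 called and 833 of 1096 listed.

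The most marked stretch lay in Pcdha1, the first gene of the cluster, which had a mean normalized count of 1.29. There 10 cytosines from 36932437 to 36932542, 2152 to 2257 bp from the gene's start, were lower, among 18 listed in those 106 bp. Their differences ran from -6.78 to -44.5 points, with a smallest q of 3.03578e-09, per the authors' deposited table. One cytosine nearby was higher, by 11.6 points with a q of 0.0119, per the authors' deposited table, so the window did not meet the rule for a called one. At q under 0.01 that window did meet the rule. A like stretch lay in Pcdha4, listed at 0 reads, where 6 cytosines from 36954805 to 36954962, 2116 to 2273 bp from the start, had differences from -8.91 to -21.75 points and 1 was higher by 13.5 points, per the authors' deposited table.

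Windows of 1 kb were called when at least 5 cytosines were listed, at least 3 were called, none the other way, and calls made up at least 10%. Of 92 windows in the cluster 3 were called lower and none higher, a share of 3.26% lower, where 2.38% of all windows were called lower and 1.07% higher. One lay in Pcdhb1, from 37265001 to 37266000, where 5 of 26 cytosines were lower and the mean was -4.20 points, per the authors' deposited table. Its calls fell within 22 bp, 255 to 276 bp into a gene listed at 0 reads, and reached -35.3 points, per the authors' deposited table. Another lay in Pcdhb2, from 37296001 to 37297000, with 3 of 20 lower and a mean of -5.47 points, per the authors' deposited table. The third, from 37543001 to 37544000, lay in the spacer between beta and gamma, 24648 bp past the start of Pcdhb22, with 3 of 18 lower, a mean of -8.70 points and a largest fall of 43.8 points, per the authors' deposited table. A pair of cytosines in the next kb of this spacer were lower as well.

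Pcdhgc3, the member with most reads and one of the genes that rose, had 131 cytosines in its first 2500 bp, more than any other member. Of these 10 were lower and 2 higher, with a mean of -1.32 points, per the authors' deposited table. The lower ones lay 398 to 1170 bp from its start and had differences from -4.85 to -16.8 points, and the 2 higher ones lay at 37807933 and 37807934 with 10.6 and 8.04 points, per the authors' deposited table. Its C-type neighbours Pcdhgc4 and Pcdhgc5 had none called among 48 and 34 cytosines over the same length.

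Both strands of a CpG gave a check of single calls, since they are listed apart. In the cluster 879 CpGs had both strands listed. Of 96 called cytosines with a listed partner, 85 had the same sign there (88.5%, against 82.9% over the whole table). At 21 CpGs both strands were called, 15 lower and 6 higher, and at none in opposite directions. Opposite calls were rare over the whole table too. There 17760 CpGs were called the same way on both strands, 10617 lower and 7143 higher, and 167 in opposite directions. The paired lower ones of the cluster included CpGs of Pcdha1, Pcdha4, Pcdhb1 and Pcdhgc3.

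Windows of 1000 bp on each side of a gene's start had at least 5 listed cytosines in 27 of 58 members with a start of their own (7 alpha, 5 beta and 15 gamma), and 27 had none listed. The mean difference was negative in 19 and positive in 8, with a median of -0.706 points. Among 17244 starts of genes on other chromosomes the median was -0.10 and 54.4% were negative, per the authors' deposited table. The lower and upper quartiles of those starts were -0.967 and 0.568 points. These quartiles describe single starts and not a median over 27, and the difference between members and other starts was not tested. Medians were -0.615 over the 7 alpha, -2.28 over the 5 beta and -0.706 over the 15 gamma genes. Their order rests on the window, since the first 2500 bp gave -1.52, -0.543 and -0.539 points and windows of 500 bp on each side -0.106, -0.86 and -0.611. In alpha the means ran from -2.22 points in Pcdha3 and -1.88 in Pcdha5 to 0.801 in Pcdha1 and 1.41 in Pcdha12, per the authors' deposited table. With 500 bp on each side the mean of Pcdha3 was 0.13 points.

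Among beta genes with at least 5 listed cytosines at the start, the lowest means were in Pcdhb7 (-7.56 points over 5 cytosines) and Pcdhb1 (-4.20 over 26) and the highest in Pcdhb5 (13.3 over 6, none called) and Pcdhb2 (-0.26 over 28), per the authors' deposited table. With 4 cytosines each, Pcdhb3 had a mean of -10.1 points and Pcdhb12 one of 5.80, per the authors' deposited table. Of the 8 beta genes that rose, only Pcdhb17 had 5 cytosines at its start, with a mean of -2.28 points over 12 and none called, and the other 7 had none listed there. The median over those 12 was 0.09 points, per the authors' deposited table. Over the first 2500 bp 5 of these 8 genes had at least 5 listed cytosines, and their means went both ways, with 4.85 points in Pcdhb22 over 10, 0.872 in Pcdhb16 over 12, -0.543 in Pcdhb20 over 8, -0.801 in Pcdhb17 over 35 and -6.86 in Pcdhb15 over 8, per the authors' deposited table. The only called one among them was lower and lay in Pcdhb15. Among gamma genes with at least 5 listed, the lowest were Pcdhgb5 (-4.66 over 10) and Pcdhga2 (-3.08 over 20) and the highest Pcdhgb2 (5.32 over 17) and Pcdhga4 (2.61 over 42), while Pcdhgb8 had 10.9 over 4, per the authors' deposited table. At the start of Pcdhgb2 2 cytosines were higher, by 26.7 and 40.4 points at 37690007 and 37690032, and none lower, per the authors' deposited table. Of the gamma genes that rose, Pcdhga1 had a mean of -0.18 points over 32 cytosines with none called and Pcdhgc3 one of -0.954 over 99 with 5 lower, per the authors' deposited table. Over the first 2500 bp the mean of Pcdhga1 was 0.706 points with 1 of 38 higher, and that of Pcdha1 was -4.91 points with 10 of 50 lower, so both had the other sign there, per the authors' deposited table.

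Across 20 members with at least 5 cytosines at the start and a mean normalized count of at least 5, the mean methylation difference and the log2 fold change of expression had a Pearson r of 0.22 and a Spearman rho of 0.24. Over the first 2500 bp, with 32 such members, they were 0.02 and 0.04. At the start, r and rho were 0.31 and 0.16 over 15 gamma members and 0.18 and 0.40 over 4 beta members. Over the first 2500 bp they were 0.09 and 0.07 over 21 gamma and -0.23 and 0.006 over 10 beta members. Only 1 alpha member qualified in either setting. These are descriptions across genes of 1 cluster that share the same 4 clones, and the genes are not independent.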

How the data were processed

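RNA-seq and RRBS were made from 4 stable NIH3T3 clones, 2 per group. The submitters' processing notes name Trim Galore, Bismark, Bowtie2, methylKit, TopHat2, HTSeq and DESeq2 and build mm10, with no version or role. Per the file headers, the RNA-seq table gives, as deposited by the authors, a mean level (a signal, read here as the mean normalized count that DESeq2 writes), a log2 fold change with its standard error, a test score, and p-values. The RRBS table gives, as deposited by the authors, for each cytosine, p-values, q-values and the difference in percent methylation. If reads were pooled within groups, q-values measure read sampling and not spread between clones.

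Nothing was refitted. Members and lists were chosen with earlier results of these data known. The authors' adjusted p under 0.05 called a gene and their q under 0.05 a cytosine, after 253 duplicate lines were removed. The text names all members with an adjusted p, the most read and most changed others, called windows, and extreme gene-start windows. In each list other than the cell type markers it names called genes and the 2 with most reads. Outside that rule it names Ctcf, Rad21, Smchd1, Dnmt3b, Uhrf1, Ptk2, Taf7 and Slc25a2. Gene spans came from RefSeq for GRCm38.p6, which mm10 is built on, and 58 of 59 members matched by symbol and Pcdha4-g by synonym. Clustered protocadherins were read as lying on the plus strand. The adjustment and window rule were tested on simulated data. Analysis used Python 3.11.15 with pandas 2.3.3. The normal interval around a fold change was computed from the authors' standard error. Limits on shares where none was called cover counting error only.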

Additional observations from a re-analysis of the deposited data

How the results depend on the processing

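No paired analysis was possible because the tables hold no value per clone, and leaving out a clone could not be run for the same reason. At an adjusted p under 0.1, 1 alpha gene was higher in place of 0, and likewise 1 at an unadjusted p under 0.05. At an adjusted p under 0.01, 2 beta genes in place of 8 and 0 gamma genes in place of 2 were higher. With p-values adjusted over all genes that have one, 5 beta and 0 gamma genes were higher. No setting called a member lower. At q under 0.01, 16 alpha and 15 gamma cytosines were lower in place of 27 and 33, and 4 and 6 higher in place of 10 and 17. With a difference of at least 25 points as well, 10 alpha, 3 beta and 7 gamma cytosines were lower, in place of 27, 11 and 33, and 1 alpha and 4 gamma ones higher. With both strands of a CpG averaged, and CpGs listed on a single strand kept, mean differences were -1.25 points in alpha, -0.522 in beta and -0.772 in gamma. Over only the CpGs with both strands listed they were -1.18, -1.55 and -0.844 points. The medians over single cytosines, not averaged by strand, were -0.73, -0.831 and -0.221. At gene starts, windows of 500 bp on each side gave medians of -0.106, -0.86 and -0.611 points for alpha, beta and gamma, and the first 2500 bp gave -1.52, -0.543 and -0.539. With at least 10 listed cytosines the gamma median was -0.569. Windows of 500 bp gave 5 lower calls in place of 3, and windows of 2 kb and q under 0.01 gave 3 each. Under each of these settings 1 alpha window was lower in place of 0. With windows of 2 kb and with q under 0.01, 1 beta window was lower in place of 2. No part's mean or median and no median over gene starts changed sign. Means at 6 single gene starts did: in the first 2500 bp Pcdha1 went from 0.801 to -4.91 points, Pcdhga1 from -0.177 to 0.706, Pcdhga3 from -0.431 to 0.245, Pcdhga9 from 0.705 to -0.0377 and Pcdhga11 from 0.325 to -1.96, and with 500 bp on each side Pcdha3 went from -2.22 to 0.13. The cause of these shifts was not tested. Depth and coverage are unknown from these tables, so a member with no call may differ by an amount they could not show.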
